A study of Mus musculus with 8 samples.

Results

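The mesothelium is the thin sheet of flattened cells that covers the liver and the other organs of the peritoneal cavity. Its cells produce lubricating surface glycoproteins and matrix proteins, and in the mouse embryo cells of the liver mesothelium are known to give rise to stellate cells and other mesenchymal cells. The transcription factor Wt1 and the retinoic acid producing enzyme Aldh1a2 are classical markers of embryonic mesothelium, and Msln, Upk1b and Upk3b are markers of the adult sheet. In a piece of whole liver, where most RNA comes from hepatocytes, such genes are read from a small fraction of the tissue. Counts were taken for 9 mesothelial marker symbols: Msln, Upk1b, Upk3b, Wt1, Aldh1a2, Gpm6a, Lrrn4, Muc16 and Efemp1. Of these 9 symbols, 8 were matched to rows among the 26166 gene symbols of the count table, and Muc16 was not analysed here. All 8 entered the test across 12427 genes, although Aldh1a2 passed the filter on low counts only through the IXA4 libraries. That filter asked for about 10 counts in at least 4 libraries, which Aldh1a2 reached in 0 and Wt1 in 3 of the 4 vehicle libraries.

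The RNA came from livers of C57BL/6N males with diet-induced obesity (DIO mice). They were bought from Taconic Biosciences at 14 weeks of age and kept for 3 weeks on a diet with 60% of its kcal from fat before dosing. A group of 4 mice received the IRE1 activator IXA4 at 50 mg/kg and a group of 4 received the vehicle alone, a mixture of DMSO, Kolliphor EL, ethanol and saline, by daily intraperitoneal injection for up to 8 weeks. IRE1 is the endoplasmic reticulum stress sensor that splices Xbp1 mRNA, and the series asked how the compound changed the liver transcriptome. Both groups therefore had fluid injected each day into the cavity that the mesothelium lines, and no group without injections was analysed here. Mesothelial cells were not isolated, and how much of the liver capsule went into each RNA sample is not given in the sources used here.

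The 8 libraries held 16986915 to 18390185 counts each. Levels are given as CPM, the count scaled to the library size after TMM normalization, and libraries are named by group and by the replicate number of their column. Dnajb9, a chaperone gene induced by spliced XBP1, was read at 78.8 to 129 CPM in the IXA4 libraries and at 18.8 to 24.0 CPM in the vehicle libraries, with a log2 fold change of 2.26 (SE 0.16, adjusted p = 6.40e-05). At an adjusted p under 0.05, 3.64% of the 12427 genes tested were higher and 0.99% were lower with IXA4. Leaving out vehicle replicate 1 or vehicle replicate 2 reduced the higher calls from 452 to 261 or 271 genes. The hepatocyte gene Alb was read at 67018 to 100268 CPM, whereas the summed level of the 8 mesothelial genes ranged from 15.5 to 51.9 CPM.

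Promoter sequences were available from RefSeq (GRCm38.p6) for 5 of the 8 genes, in 6 windows, namely Aldh1a2, Lrrn4, Upk3b, Gpm6a and Efemp1. The 250 bases before the start site are shown for Aldh1a2, the marker with the largest fitted change, and for Lrrn4 and Upk3b, a pair of markers whose levels varied together from library to library. Each is written 5′ to 3′ along the gene. Capitals mark matches, on either strand, to TGACGTG (the core of the element bound by spliced XBP1), GGAATG (bound by TEAD factors), GCGTGGG (bound by WT1 and EGR factors), AGGTCA (the core bound by nuclear receptors) or TATAAA. The Aldh1a2 window is chr9:71215539-71215788 on the plus strand, the Lrrn4 window is chr2:132880863-132881112 on the minus strand and the Upk3b window is chr5:136038246-136038495 on the plus strand.
Aldh1a2: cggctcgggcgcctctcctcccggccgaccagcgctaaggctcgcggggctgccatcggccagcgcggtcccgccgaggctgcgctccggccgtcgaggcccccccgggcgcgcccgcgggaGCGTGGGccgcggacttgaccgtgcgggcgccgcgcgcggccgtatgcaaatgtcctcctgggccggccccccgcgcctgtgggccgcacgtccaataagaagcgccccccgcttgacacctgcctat
Lrrn4: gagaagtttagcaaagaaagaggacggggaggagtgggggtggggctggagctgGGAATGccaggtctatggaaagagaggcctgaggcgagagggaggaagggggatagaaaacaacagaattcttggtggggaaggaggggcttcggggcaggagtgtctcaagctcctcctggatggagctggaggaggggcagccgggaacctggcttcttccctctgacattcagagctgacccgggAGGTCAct
Upk3b: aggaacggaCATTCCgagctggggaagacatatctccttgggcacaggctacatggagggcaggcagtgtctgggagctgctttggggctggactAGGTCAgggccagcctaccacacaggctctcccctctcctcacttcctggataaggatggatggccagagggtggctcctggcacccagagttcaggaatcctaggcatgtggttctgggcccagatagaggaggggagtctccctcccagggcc

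The Aldh1a2 window held GCGTGGG at -128 from the start site, letters found in 5.04% of 32851 RefSeq mouse promoters of 300 bases. Lrrn4 held GGAATG at -196 and AGGTCA at -8, and Upk3b held GGAATG on the opposite strand (as CATTCC) at -241 and AGGTCA at -155. GGAATG was present in 14.7% and AGGTCA in 16.3% of all promoters, so each was common. Of the windows not shown, those of Gpm6a held GGAATG in 1 and TATAAA in the other, the latter found in 13.6% of all promoters, and that of Efemp1 held none of the 5 motifs. TGACGTG was in none of the 6 windows and in 2.01% of all promoters. No match overlapped another, and a match of letters does not show that a factor binds there.

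Of the 8 mesothelial genes, 2 passed the test between IXA4-treated and vehicle-treated livers. Aldh1a2 was 6.39-fold higher and Upk1b 3.27-fold higher than with vehicle, whereas the most abundant markers, Msln and Efemp1, did not pass the test. Thus 2 of 8 genes were called higher, against 3.64% of all genes, and 0 of 8 were called lower, against 0.99%. Of the 2, Aldh1a2 passed the filter on low counts only through the IXA4 libraries, so the 2 of 8 rests in part on that selection. Under a filter of 10 counts in every library, 1 gene was called higher. By edgeR at an unadjusted p under 0.05, 3 genes were higher (Lrrn4 in addition) and 1, Efemp1, was lower, where 11.1% of all genes passed that limit upward and 8.03% downward. DESeq2 also called 0 of the 8 lower. The count of 2 higher genes fell to 0 without vehicle replicate 2 and to 1 when IXA4 replicate 1 or 3 or vehicle replicate 1 or 3 was left out. The median log2 fold change was 0.78 over the 8 genes and -0.015 over all genes tested. That median of the 8 includes Aldh1a2 and Wt1, which reached the filter's count in 0 and 3 of the 4 vehicle libraries. It too thus rests in part on selection through the IXA4 libraries. In bulk liver, more cells of a type and more RNA per cell cannot be told apart, and this holds for each value given here. With 4 libraries against 4, the smallest p that the two-sided exact permutation test of a single gene can give is 0.0286.

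**Figure D1:**
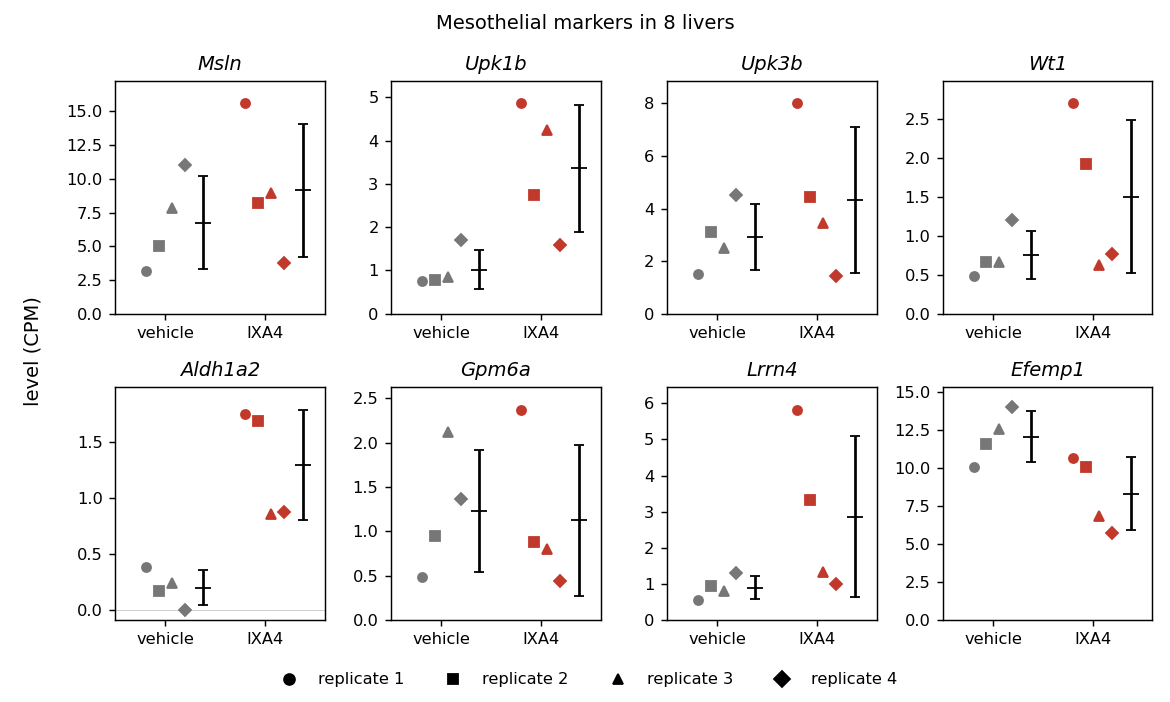
Level of each of the 8 mesothelial genes (CPM, linear axis per gene) in the 4 vehicle and 4 IXA4 libraries. Each symbol is 1 library, its shape gives the replicate number, and the bar shows the mean ± SD. The 4 IXA4 libraries lie above every vehicle library only for Aldh1a2, with 0.860 to 1.75 against 0 to 0.379 CPM.

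Aldh1a2 encodes retinaldehyde dehydrogenase 2, which makes retinoic acid from retinaldehyde. It lies at chr9:71063596-71144050 on the plus strand of NCBIM37 and has 14 merged exons in GENCODE vM1. Its counts were 31, 29, 15 and 16 in IXA4 replicates 1 to 4 and 7, 3, 4 and 0 in vehicle replicates 1 to 4. These counts correspond to 1.75, 1.69, 0.860 and 0.876 CPM with IXA4 and to 0.379, 0.167, 0.242 and 0 CPM with vehicle, where a count of 0 in vehicle replicate 4 allows up to 0.164 CPM (3 counts). All 4 IXA4 libraries lay above all 4 vehicle libraries, which was true of 7.44% of all genes tested, and the mean was 1.29 ± 0.493 with IXA4 against 0.197 ± 0.158 CPM with vehicle (SD, n = 4). The log2 fold change was 2.68 (SE 0.54, 95% interval 1.51 to 3.84, adjusted p = 0.0136), and the exact permutation p was 0.0286. Without vehicle replicate 2 the log2 fold change was 2.60 and the adjusted p was 0.0546. Aldh1a2 was not tested under a filter that asked for 10 counts in every library.

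Upk1b encodes uroplakin 1B, a tetraspanin known from the plaques of the bladder surface and also made by mesothelium. It lies at chr16:38773297-38800316 on the minus strand of NCBIM37. Its counts were 86, 47, 74 and 29 in IXA4 replicates 1 to 4 and 14, 14, 14 and 31 in vehicle replicates 1 to 4. In CPM these were 4.86, 2.74, 4.24 and 1.59 against 0.759, 0.778, 0.847 and 1.69. IXA4 replicates 1 to 3 were above every vehicle library, while IXA4 replicate 4 was just under vehicle replicate 4, the only vehicle library that stood apart from the other three. The log2 fold change was 1.71 (SE 0.38, 95% interval 0.89 to 2.53, adjusted p = 0.0223), and the exact permutation p was 0.0571. The call was lost when 1 of 5 libraries was left out, with an adjusted p of 0.0545 without IXA4 replicate 1, 0.0619 without IXA4 replicate 3, and 0.0886, 0.0821 and 0.0658 without vehicle replicates 1, 2 and 3. The fold change itself stayed between 1.48 and 2.07 on the log2 scale.

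Upk3b encodes uroplakin 3B, known to pair with uroplakin 1B in the bladder lining, and lies at chr5:136514366-136521173 on the plus strand of NCBIM37. Its level was 8.02, 4.43, 3.44 and 1.42 CPM in IXA4 replicates 1 to 4 and 1.52, 3.11, 2.48 and 4.53 CPM in vehicle replicates 1 to 4. The groups overlapped over most of their range, and the highest and the lowest of the 8 values were both from IXA4 libraries. A log2 fold change of 0.57 (SE 0.49, 95% interval -0.55 to 1.69) did not pass the test (adjusted p = 0.587), and the exact permutation p was 0.429. The other uroplakins of the bladder plaque were nearly absent, since Upk2 and Upk3a had no count in any library and Upk1a had at most 3 counts.

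Msln encodes mesothelin, a lipid-anchored surface glycoprotein of mesothelial cells, and lies at chr17:25885559-25891272 (minus strand, NCBIM37). It was read at 15.7, 8.22, 8.94 and 3.72 CPM in IXA4 replicates 1 to 4 and at 3.20, 5.00, 7.81 and 11.0 CPM in vehicle replicates 1 to 4. The groups overlapped over most of their range, and the lowest IXA4 library was close to the lowest vehicle library. The means were 9.13 ± 4.92 and 6.76 ± 3.42 CPM (SD, n = 4), with a log2 fold change of 0.43 (SE 0.50, 95% interval -0.72 to 1.59, adjusted p = 0.696) and an exact permutation p of 0.486. Changes within that interval are not excluded by these libraries.

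Lrrn4, a leucine-rich repeat membrane protein gene of the mesothelium (chr2:132694041-132706627, minus strand, NCBIM37), had 103, 57, 23 and 18 counts in IXA4 replicates 1 to 4. In vehicle replicates 1 to 4 it had 10, 17, 13 and 24 counts. IXA4 replicates 1 and 2 were far above the vehicle libraries, replicate 3 was level with the highest of them (1.32 against 1.31 CPM) and replicate 4 lay among them. The log2 fold change was 1.66 (SE 0.56, 95% interval 0.42 to 2.91), with an adjusted p of 0.139 and an exact permutation p of 0.0571. DESeq2 in place of edgeR gave an adjusted p of 0.0185, and leaving out IXA4 replicate 4 gave 0.0490. With any other library left out the adjusted p was 0.0953 to 0.294, and without IXA4 replicate 1 the log2 fold change was 1.05 (adjusted p = 0.226).

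Wt1 encodes the zinc finger transcription factor of the embryonic coelomic lining and lies on the same chromosome, at chr2:104966686-105013773 (plus strand, NCBIM37). It had 48, 33, 11 and 14 counts in IXA4 replicates 1 to 4 and 9, 12, 11 and 22 counts in vehicle replicates 1 to 4. As for Lrrn4, IXA4 replicates 1 and 2 were above every vehicle library. Replicates 3 and 4 were among the vehicle libraries, whereas for Lrrn4 replicate 3 was level with the highest of them. Its log2 fold change of 0.99 (SE 0.47, 95% interval -0.04 to 2.01) did not pass the test (adjusted p = 0.280), and the exact permutation p was 0.229. Reads of an antisense transcript at this locus could not be set apart, because the strand setting of the counting is unstated.

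Gpm6a encodes a proteolipid family membrane glycoprotein that is abundant in neurons and also marks mesothelium (chr8:56040081-56146231, plus strand, NCBIM37). It had 42, 15, 14 and 8 counts in IXA4 replicates 1 to 4 and 9, 17, 35 and 25 counts in vehicle replicates 1 to 4. The groups overlapped throughout, with a log2 fold change of -0.12 (SE 0.53, 95% interval -1.29 to 1.05), an adjusted p of 0.926 and an exact permutation p of 0.83. Its sign changed without IXA4 replicate 3 (0.0076), IXA4 replicate 4 (0.15) or vehicle replicate 3 (0.28).

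Efemp1 encodes fibulin-3, an extracellular matrix glycoprotein, and lies at chr11:28753204-28826743 on the plus strand of NCBIM37. With Gpm6a, it was 1 of 2 markers with a lower mean in the IXA4 libraries. Its level was 10.7, 10.0, 6.82 and 5.70 CPM in IXA4 replicates 1 to 4 and 10.1, 11.6, 12.6 and 14.0 CPM in vehicle replicates 1 to 4. IXA4 replicates 2 to 4 were below every vehicle library and replicate 1 was above vehicle replicate 1. Every IXA4 library lay below every vehicle library for 5.24% of all genes tested, and for 0 of these 8. Its log2 fold change was -0.54 (SE 0.19, 95% interval -0.96 to -0.12), which did not pass over all genes (adjusted p = 0.147), and the exact permutation p was 0.0571.

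**Figure D2:**
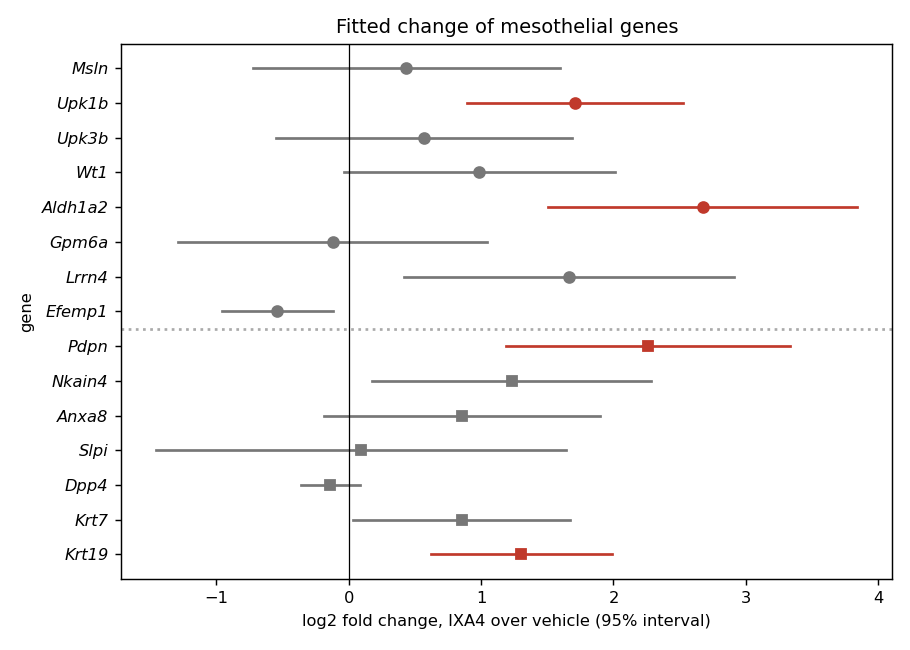
Fitted log2 fold change of IXA4 over vehicle (x axis) with its 95% interval for the 8 mesothelial markers (circles, above the dotted line) and 7 other mesothelial genes that were tested (squares). Red marks an adjusted p under 0.05. The estimates of the 8 markers run from -0.54 for Efemp1 to 2.68 for Aldh1a2.

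Levels of different genes were compared only per kilobase of merged exon in GENCODE vM1, whose gene models may differ from those behind the count table. In vehicle libraries the order of mean level was Efemp1 (5.92 CPM per kb), Msln (3.20), Upk3b (1.24), Upk1b (0.576), Gpm6a (0.368), Lrrn4 (0.241), Wt1 (0.122) and Aldh1a2 (0.0870). All 7 neighbouring pairs in that order overlapped in their range over libraries. In IXA4 libraries the mean levels per kb were 4.32 for Msln, 4.08 for Efemp1, 1.90 for Upk1b, 1.85 for Upk3b, 0.770 for Lrrn4, 0.572 for Aldh1a2, 0.336 for Gpm6a and 0.243 for Wt1. Here 6 of 7 neighbouring pairs overlapped, and Efemp1 (lowest library 2.80) stayed above Upk1b (highest library 2.75). Aldh1a2 was thus the lowest of the 8 genes per kb with vehicle and lay between Lrrn4 and Gpm6a with IXA4.

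The markers varied strongly among mice of the same group, and mostly together. Their summed level was 51.9, 33.2, 27.0 and 15.5 CPM in IXA4 replicates 1 to 4 and 17.4, 23.2, 27.5 and 35.1 CPM in vehicle replicates 1 to 4. Without Efemp1 the sums were 41.2, 23.2, 20.2 and 9.80 CPM with IXA4 and 7.37, 11.6, 14.9 and 21.1 CPM with vehicle. The groups overlapped in both sums. IXA4 replicate 1 was the highest library of its group for 8 of 8 genes, and IXA4 replicate 4 was the lowest for 6, with Wt1 and Aldh1a2 lowest in replicate 3. Among vehicle libraries, replicate 4 was the highest for 6 genes and replicate 1 was the lowest for 7. The exceptions in the vehicle group were Gpm6a, highest in replicate 3, and Aldh1a2, highest in replicate 1 and lowest in replicate 4.

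**Figure D3:**
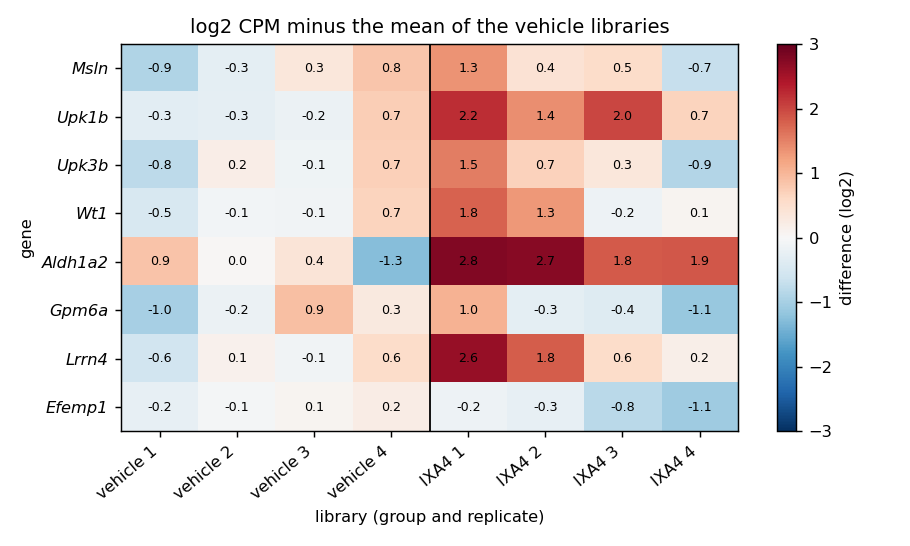
Difference of each library's log2 CPM (prior count 2) from the mean of the 4 vehicle libraries, for the 8 genes (rows) in the 8 libraries (columns). Red is above and blue below the vehicle mean. Aldh1a2 is above it by 1.84 to 2.78 in all 4 IXA4 libraries, whereas Msln ranges from -0.70 to 1.34 there.

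As a description of that shared variation, the group mean was taken from each gene's log2 CPM and the genes were correlated over the 8 libraries. Among the 7 genes other than Aldh1a2 the 21 pairwise correlations ran from 0.53 (Upk1b with Wt1) to 0.96 (Lrrn4 with Efemp1), with a median of 0.83. Wt1 and Lrrn4 also reached 0.96, and Msln and Upk3b 0.92. Aldh1a2 had correlations between -0.32 and 0.12 to the other 7, but its vehicle counts of 7, 3, 4 and 0 carry much counting error. Within the IXA4 group its replicates 1 and 2 lay above replicates 3 and 4, as they did for Wt1 and Lrrn4. All these correlations share libraries and depth, and with 4 mice per group they rest on few values. The mean log2 CPM of the 8 genes deviated from its group mean by 0.89, 0.23, -0.26 and -0.87 in IXA4 replicates 1 to 4 and by -0.43, -0.066, 0.15 and 0.35 in vehicle replicates 1 to 4.

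Because Msln varied between mice of a group, each gene was also expressed per 100 Msln counts of the same library, an alternative chosen after seeing the data. On this scale Upk1b was read at 31.0, 33.3, 47.4 and 42.6 in IXA4 replicates 1 to 4 and at 23.7, 15.6, 10.9 and 15.3 in vehicle replicates 1 to 4. The groups did not overlap (exact permutation p = 0.0286), which held for 1 of the 7 genes and for 0.346% of all genes tested. That share is no like background, because dividing by Msln adds its variation to genes that do not vary with it. Upk1b did vary with Msln (correlation 0.89). On CPM the groups overlapped for Upk1b (exact permutation p = 0.0571), and 7.44% of all genes tested had every IXA4 library above every vehicle library. Aldh1a2 was read at 11.2, 20.6, 9.62 and 23.5 per 100 Msln counts with IXA4 and at 11.9, 3.33, 3.10 and 0 with vehicle, so that vehicle replicate 1 overlapped the IXA4 libraries (exact permutation p = 0.0857). Lrrn4 gave 14.7 to 40.4 with IXA4, lowest in replicate 3, against 10.1 to 18.9, with the same permutation p of 0.0857 by the exact test.

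Upk3b followed Msln closely, with 38.2 to 53.9 per 100 Msln counts in the IXA4 group and 31.8 to 62.2 in the vehicle group (exact permutation p = 1). Wt1 gave 7.05 to 23.4 and 8.53 to 15.3 (exact permutation p = 0.229). Gpm6a gave 8.97 to 15.2 with IXA4 and 12.4 to 27.1 with vehicle, and Efemp1 gave 68.2 to 153 and 127 to 315, each with an exact permutation p of 0.0571. The Msln count itself was 68 in IXA4 replicate 4 and 59 in vehicle replicate 1, so these ratios carry the counting error of small numbers.

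**Figure D4:**
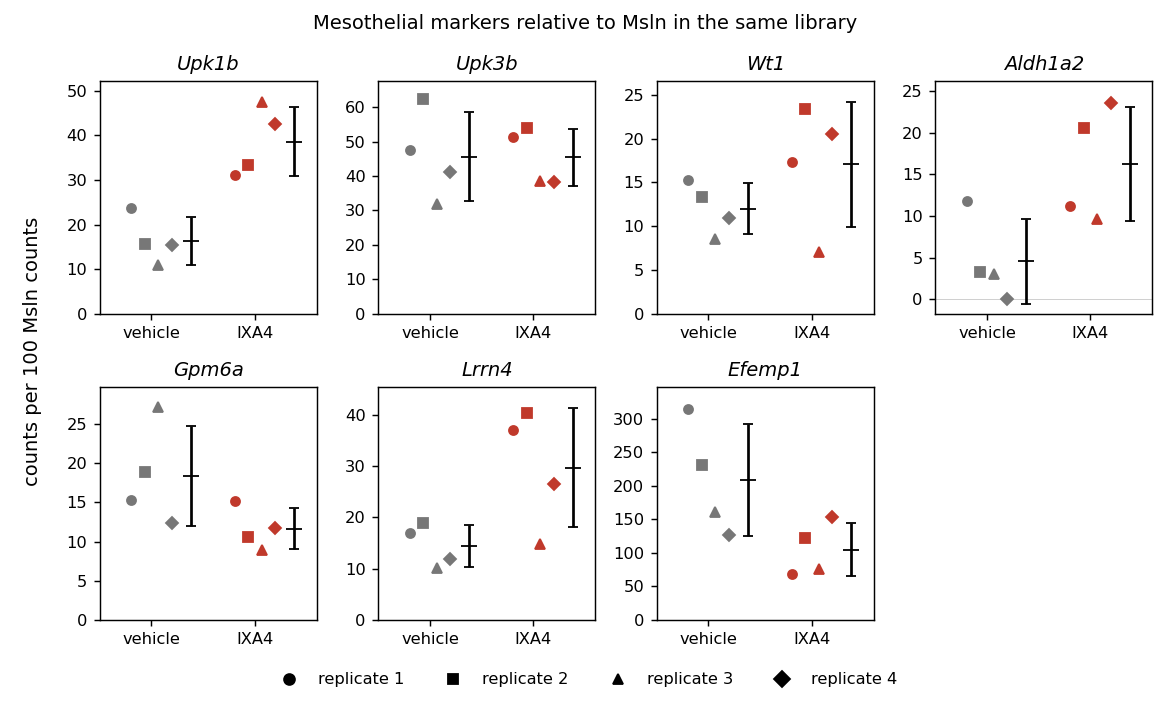
Counts of 7 mesothelial genes per 100 Msln counts of the same library (y axis, linear), by group. Each symbol is 1 library and the bar shows the mean ± SD. For Upk1b the IXA4 libraries lie at 31.0 to 47.4 and the vehicle libraries at 10.9 to 23.7, whereas for Upk3b both groups cover the same range.

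Other genes of the mesothelium were read from a list of 13, which shares Krt7 and Krt19 with the cholangiocyte list below. Of the 13, 7 were tested and 2 were higher, against 3.64% of all genes. By edgeR 0 were lower, also at an unadjusted p under 0.05 and by DESeq2, and the list had a median log2 fold change of 0.86. Pdpn, the podoplanin gene of mesothelium and lymphatic endothelium, had 45, 17, 24 and 45 counts in IXA4 replicates 1 to 4 and 2, 3, 9 and 13 in vehicle replicates 1 to 4. The groups did not overlap and Pdpn was higher with IXA4 (log2 fold change 2.26, SE 0.49, adjusted p = 0.0214), but it passed the filter on low counts only through the IXA4 libraries, as just 1 vehicle library reached the filter's minimum. The call was lost without IXA4 replicate 1, IXA4 replicate 4, vehicle replicate 1 or vehicle replicate 2 (adjusted p 0.0507 to 0.0759). Krt19, a keratin of mesothelium and bile duct epithelium, was higher by 1.30 on the log2 scale (SE 0.32, adjusted p = 0.0336), at 2.57 to 4.90 against 0.666 to 2.11 CPM. That call was lost with library totals in place of TMM (adjusted p = 0.0530) and without IXA4 replicates 1, 2 or 3 or vehicle replicates 1, 2 or 4 (adjusted p up to 0.0940). Dpp4, a peptidase also made by hepatocytes and the most abundant gene of the list, was at 74.1 to 89.2 CPM with IXA4 and 77.5 to 103 CPM with vehicle (log2 fold change -0.14, adjusted p = 0.504). Itln1 had no count in any library.

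Genes whose variation was most like that of the 8 markers were ranked by the correlation, over the 8 libraries, of their group-centred log2 CPM with the mean of the markers. Among genes of at least 1 CPM the 10 closest included Dnlz, Ncapd2, LOC434624, Stmn1, Bscl2, Rnaset2b, Nfu1, Smarcb1 and Xkr9, with correlations from 0.98 down to 0.96. The 9 genes named here missed the threshold between groups. Over all 12419 other genes the median correlation was -0.050, the 5th and 95th percentiles were -0.79 and 0.78, and 98 genes exceeded 0.9. Of the other mesothelial genes, Krt7 reached 0.92, Nkain4 0.87 and Slpi 0.76, whereas Pdpn reached 0.30, Krt19 0.054 and Dpp4 -0.53. Dnajb9 had a correlation of -0.72, and its level was 91.9, 78.8, 129 and 128 CPM in IXA4 replicates 1 to 4.

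Around Aldh1a2, 11 other genes of retinoic acid synthesis, transport, breakdown and response were listed and 6 were tested. By edgeR 0 of the 6 were called in either direction, 0 had an unadjusted p under 0.05 and DESeq2 called 0, and their median log2 fold change was 0.032. Aldh1a1, the paralogous retinaldehyde dehydrogenase abundant in hepatocytes, was at 1942 ± 169 CPM with IXA4 and 1806 ± 70.6 CPM with vehicle (SD, n = 4), with a log2 fold change of 0.11 (SE 0.10, adjusted p = 0.631). Cyp26a1, the retinoic acid hydroxylase gene, had a log2 fold change of 0.48 (SE 0.25, adjusted p = 0.320), and the receptor gene Rarb one of -0.54 (SE 0.30, adjusted p = 0.366). These last 2 genes were chosen after their values were seen. Fold changes of the 6 tested genes thus scattered around zero while Aldh1a2 was higher. Of the genes too low to be tested, Crabp2 had 29 counts in the IXA4 group and 2 in the vehicle group. Cyp26b1 had 21 and 37. Both were chosen after their values were seen.

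Efemp1 belongs to the fibulins, of which 6 others were listed, 5 were tested and 1 was higher, against 3.64% of all genes. By edgeR 0 were lower, also at an unadjusted p under 0.05, as by DESeq2. Fbln2, which encodes the matrix protein fibulin-2, had 248, 255, 158 and 218 counts in IXA4 replicates 1 to 4 and 22, 37, 11 and 29 counts in vehicle replicates 1 to 4. It was higher by 3.17 on the log2 scale (SE 0.27, adjusted p = 8.31e-05), while Efemp2, the nearest paralogue of Efemp1, had a log2 fold change of 0.29 (SE 0.21, adjusted p = 0.496). Of 5 membrane mucins other than Muc16, only Muc1 was tested, having reached the filter's minimum in 2 of the 4 vehicle libraries, at 1.26 ± 0.559 and 0.559 ± 0.398 CPM (SD, n = 4), with a log2 fold change of 1.18 and an adjusted p of 0.216.

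Genes of other liver cell types moved with treatment as well. Of 10 activated fibroblast genes, all tested, 8 were higher and 0 were lower by edgeR and by DESeq2. By edgeR 3.64% of all genes were higher and 0.99% lower. The list was chosen with earlier results of these data known, and the authors had already reported higher Col1a1 and Timp1 in these livers. At an unadjusted p under 0.05 by edgeR, 0 of the 10 genes were lower, and their median log2 fold change was 1.97. Those of smallest p were Lox, a collagen crosslinking enzyme (log2 fold change 4.33, SE 0.49, adjusted p = 0.000275), Fbn1, the fibrillin-1 gene (1.57, SE 0.21, adjusted p = 0.000944), and Timp1, a metalloproteinase inhibitor (2.78, SE 0.37, adjusted p = 0.00176). Lox had 34, 28, 19 and 28 counts in IXA4 replicates 1 to 4 and 1, 2, 2 and 0 in vehicle replicates 1 to 4, so that it too passed the filter only through the IXA4 libraries. Postn, another matrix gene, was at 6.33 to 14.7 CPM with IXA4 and 5.75 to 18.6 CPM with vehicle. The summed level of the 10 genes was 333, 477, 233 and 353 CPM in IXA4 replicates 1 to 4 and 60.9 to 119 CPM in vehicle libraries. Within the IXA4 group the sum of fibroblast genes was highest in replicate 2 and lowest in replicate 3. In CPM, Aldh1a2, Upk1b and Pdpn were each highest in replicate 1, but Aldh1a2 and Pdpn only by little. Aldh1a2 was at 1.75 and 1.69 CPM in replicates 1 and 2, and Pdpn at 2.54 and 2.46 CPM in replicates 1 and 4. Aldh1a2, like the fibroblast sum, was lowest in replicate 3, close to replicate 4 (0.860 against 0.876 CPM). Upk1b was lowest in replicate 4 and Pdpn in replicate 2. With so few counts, such close ranks do not set these genes apart from the fibroblast genes. The part of such cells in the higher Aldh1a2, Upk1b and Pdpn counts was not tested.

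Portal fibroblast markers gave 0 calls among 4 tested of 8, with 0 at an unadjusted p under 0.05 by edgeR and 0 called by DESeq2 (summed 9.86 to 18.0 CPM with IXA4, 9.86 to 14.2 with vehicle). Of 9 stellate cell markers tested, 1 was lower, against 0.99% of all genes. This was Reln, a secreted glycoprotein gene (log2 fold change -0.92, SE 0.15, adjusted p = 0.00441). The list's sum was 126 to 214 CPM with IXA4 and 223 to 290 CPM with vehicle, without overlap. Most of that sum came from Ecm1, which overlapped between the groups (93.2 to 184 CPM with IXA4, 175 to 229 with vehicle). Ecm1 was not called by edgeR (log2 fold change -0.57, adjusted p = 0.107). At an unadjusted p under 0.05, 5 of the 9 were lower, against 8.03% of all genes. DESeq2 called 2 lower, as did edgeR without vehicle replicate 3, and edgeR called 3 without IXA4 replicate 2. Of 7 cholangiocyte markers tested of 8 listed, 2 were higher, against 3.64% of all genes. These were Krt19 and the osteopontin gene Spp1 (log2 fold change 0.70, SE 0.11, adjusted p = 0.00239). The list's sum was 51.1 to 57.3 CPM with IXA4 and 33.7 to 40.5 CPM with vehicle. The part of cholangiocytes in the Krt19 and Krt7 values was not tested. Of 8 sinusoidal endothelial markers, 2 were lower, the receptor gene Kdr (log2 fold change -0.93, adjusted p = 0.0115) and Oit3 (-1.15, adjusted p = 0.0266). By edgeR 0.99% of all genes were called lower and 8.03% were lower at an unadjusted p under 0.05. At that unadjusted limit 4 of the 8 were lower, DESeq2 called 3, and edgeR called 5 without vehicle replicate 3. The Oit3 call was lost without IXA4 replicates 2 or 3 or vehicle replicates 1, 2 or 4 (adjusted p 0.0535 to 0.0753).

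The remaining lists gave 0 calls by edgeR. These were 8 hepatocyte markers, 6 Kupffer cell markers and the tested members of the peritoneal macrophage, adipocyte, pancreatic acinar and leukocyte lists. At an unadjusted p under 0.05, 1 hepatocyte marker and 1 peritoneal macrophage marker were lower and 1 leukocyte marker was higher, and DESeq2 called 1 hepatocyte marker lower and 1 leukocyte marker higher. Hepatocyte markers summed to 102429 to 132313 CPM with IXA4 and 115427 to 146332 CPM with vehicle. Leukocyte markers summed to 9.97 to 20.3 CPM with IXA4 and 6.66 to 13.3 CPM with vehicle, and Ptprc, the CD45 gene, had a log2 fold change of 0.89 (SE 0.23, adjusted p = 0.0524) that passed under 5 alternatives, DESeq2 among them. The adipocyte list summed to 21.3 to 29.6 CPM with IXA4 and 18.6 to 55.8 CPM with vehicle. Nearly all of this came from the lipase gene Lipe (17.4 to 23.0 CPM over the 8 libraries) and the complement factor D gene Cfd (1.27 to 37.8 CPM), while Adipoq and Lep had no count in any library. The acinar list summed to 4.07 to 6.39 CPM with IXA4 and 4.84 to 6.50 CPM with vehicle, most of it from the elastase gene Cela1, with Cpa1 and Pnlip at no count. The muscle list, with Myh2, Myh4, Tnnt3 and Mb at no count, summed to at most 0.401 CPM in any library.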

How the data were processed

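Liver RNA from DIO mice was sequenced as single-end reads. Alignment to mouse assembly NCBIM37 (DNAstar Lasergene SeqManPro) and counting (ArrayStar) were done by the authors, and the deposited table holds whole-number counts per gene symbol. How multiply mapping reads and strand were handled is not given in the sources used here. A deposited table of the authors' own DESeq comparison (fold changes and p-values) was not used. Columns were assigned to groups by their headings, and no column was matched to a single animal. Of 26166 symbols, 7170 had no count. Genes passing filterByExpr (minimum count 10, minimum total 15) were scaled by TMM and then tested with edgeR 4.0.16 (quasi-likelihood F test, robust, no covariate, R 4.3.3, limma 3.58.1), with Benjamini-Hochberg adjustment over 12427 genes at 0.05. SEs are those implied by the F statistic. The script was tested on simulated counts. Single genes were also compared by two-sided exact permutation tests. Pairs of libraries of a group differed by a chi-square per degree of freedom of 14.8 to 94.2, so none was a copy of another. The 95% intervals of fold changes were built from these SEs and include the variation between libraries. Limits for a count of 0 cover counting error only. Alternatives were DESeq2 size factors, library totals, other count filters, DESeq2 1.42.0 and each library left out.

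The markers and lists were chosen with earlier results of these data known. In each list, up to 3 genes of smallest p in each direction and the most abundant gene not called are eligible to be named. For likeness of pattern, the 10 closest genes fall under the rule, of which 1 is not reported here. Promoters are RefSeq sequences on GRCm38.p6.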

Additional observations from a re-analysis of the deposited data

Results flagged for a closer look

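In 4 of 88 sets of 4 libraries, a library lay apart from the other three by Dixon's measure, the gap to the nearest library divided by the range of the group. Chance alone gives about 1 in 20. Among the mesothelial markers this was Upk1b, where vehicle replicate 4 stood at 1.69 CPM and the next vehicle library at 0.847 CPM (gap over range 0.905). Vehicle replicate 4 was also apart for the metalloproteinase inhibitor gene Timp1, at 2.51 against 0.813 CPM (0.92). IXA4 replicate 4, the library with the lowest summed level of the markers, was low in Alb, at 67018 against 90887 CPM (0.983). Vehicle replicate 3 was low in Kdr, at 8.23 against 11.5 CPM (0.832).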

How the results depend on the processing

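No paired analysis was possible because the columns carry no animal numbers and the labels of the 2 groups share only the number 1. Of 153 repeats of the main results, 128 kept their direction and their side of the threshold (counts within 1.5 times), as did 904 of 972 for the other named genes and lists. No scaling moved the median of all genes by more than 0.034 on the log2 scale. With DESeq2, 256 genes were lower in place of 123, and Lrrn4 was called (log2 fold change 1.68, adjusted p = 0.0185). A filter of 10 counts in every library left 1 marker higher, since Aldh1a2 was not tested there. With each library left out in turn, 261 to 613 genes were higher (fewest without vehicle replicates 1 and 2) and 43 to 162 lower (43, 49 and 52 when vehicle replicate 1, 2 or 4 was dropped, and 74 and 72 when IXA4 replicate 1 or 3 was dropped). Between 0 and 3 markers were then higher, with 0 without vehicle replicate 2 and 1 without IXA4 replicates 1 or 3 or vehicle replicates 1 or 3. The log2 fold change ranged from 1.48 to 2.07 for Upk1b, from 2.26 to 3.21 for Aldh1a2, from 1.05 to 1.95 for Lrrn4 and from 0.043 to 0.78 for Msln. Values near zero changed sign without being called, in the ranges -0.79 to 0.28 (Gpm6a), -0.56 to 0.019 (Postn), -0.12 to 0.049 (Alb), -0.089 to 0.038 (Lipe), -0.42 to 0.11 (Stmn1) and -0.058 to 0.056 (Rnaset2b, also -0.029 with library totals and -0.0010 with no filter). The cause of these shifts was not tested. Most counts of the markers other than Efemp1 and Msln were under 100 per library, which limits their precision.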

Other observations

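Among mesothelial genes too low to be tested, Bnc1, a zinc finger gene of mesothelium, had 19, 9, 7 and 4 counts in IXA4 replicates 1 to 4 and 4, 8, 10 and 8 in vehicle replicates 1 to 4. Rspo1, a secreted Wnt pathway activator, had 37, 16, 5 and 4 counts in IXA4 replicates 1 to 4 and 5, 10, 7 and 16 in vehicle replicates 1 to 4. In both genes IXA4 replicate 1 was the highest and IXA4 replicate 4 the lowest of the IXA4 libraries, the order in which most of the markers stood. The calcium-binding protein gene Calb2 had at most 2 counts and Tbx18, a T-box factor gene, at most 3 counts in any library. All these genes were chosen after their values were seen.

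Outside the rule for named genes and chosen after its values were seen, Serpinb2, a protease inhibitor gene listed for peritoneal macrophages, had 10, 7, 14 and 52 counts in IXA4 replicates 1 to 4 and no count in any vehicle library. Its IXA4 mean of 1.16 ± 1.14 CPM (SD, n = 4) was 27.5 times a limit of 3 counts over the vehicle group (0.0421 CPM). Without IXA4 replicate 4, the library with most of its counts, the IXA4 mean was 0.592 CPM, 14.1 times that limit. The limit covers only the counting error of the vehicle group, so neither ratio is a lower bound of the change. Serpinb2 was too low to be tested. Gata6, another gene of that list, was at 5.42 to 12.7 CPM with IXA4 and 5.63 to 7.28 CPM with vehicle (log2 fold change 0.37, adjusted p = 0.477). Ltbp1, the other tested gene of the list, went the other way, at 1.04 to 1.95 CPM with IXA4 and 1.08 to 4.42 CPM with vehicle. Its log2 fold change was -0.87 (SE 0.37, adjusted p = 0.229). Without vehicle replicate 1, edgeR called 1 gene of the list lower. Crabp2, a retinoic acid binding protein gene of the untested part of the retinoic acid list, had 4, 1, 7 and 17 counts in IXA4 replicates 1 to 4 and 0, 0, 2 and 0 in vehicle replicates 1 to 4, with the highest counts of both Serpinb2 and Crabp2 in IXA4 replicate 4.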
